A study of Mus musculus with 9 samples.

Results

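The 8 genes described here control the making and uptake of cholesterol: Srebf1 and Srebf2, Scap, Insig1 and Insig2, Stard4, Npc1 and Npc1l1. They were taken by gene symbol from a table of 21720 genes measured by RNA-seq in mouse colon, and all 8 were among the 16160 genes with enough counts to be tested. The ATO group (3 libraries) had received atorvastatin, a statin, a class of drugs that block cholesterol synthesis, at 10 mg/kg, as 5 daily doses of 0.2 mL given on days 3 to 7. The Model group (3 libraries) was gavaged for 7 days with 5% DSS (dextran sulfate sodium), an irritant polymer that damages the lining of the colon and gives a chemical model of colitis. The Normal group (3 libraries) had received the vehicle, 0.5% sodium carboxymethyl cellulose (CMC-Na), by gavage over 7 days. All were wild-type female C57BL/6 J mice, and their age is not given in the labels. The labels do not state outright whether ATO mice also received DSS, and the series asks how atorvastatin acts on ulcerative colitis. Nothing in the labels says in so many words that each library is a separate mouse, so each p-value reflects only how these libraries vary, and that variation may be technical.

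Sterol regulatory element-binding proteins are transcription factors held in the endoplasmic reticulum membrane. When membrane cholesterol is low, SCAP escorts them to the Golgi apparatus, where proteases release the part that enters the nucleus and turns on genes of sterol synthesis and uptake. When sterols are plentiful, the INSIG proteins hold SCAP in the endoplasmic reticulum. Cholesterol arrives from the gut lumen through NPC1L1, a transporter of the small intestinal brush border and the target of ezetimibe, and from endocytosed lipoproteins through NPC1 in the late endosome, while STARD4 carries it between membranes. Insig1, Stard4 and Srebf2 are themselves known targets of SREBP-2, and statins are known to raise such targets in liver cells.

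Start-site windows of 3 genes are shown because the results below turn on these genes: Insig1 varied with the sterol synthesis genes, Srebf2 encodes the factor that drives those genes, and Npc1l1 differed most between libraries. Each runs from 250 bases before the annotated start to 50 after it, from RefSeq on build GRCm38.p6, at chr5:28071162-28071461 on the plus strand for Insig1, chr15:82147019-82147318 on the plus strand for Srebf2 and chr11:6230196-6230495 on the minus strand for Npc1l1. Capitals mark every match, on either strand, to 5 motifs: the sterol regulatory element TCACNCCAC, the shorter form TCACCCCA, the E-box CACGTG, the CCAAT box and the GC box GGGCGG.
Insig1: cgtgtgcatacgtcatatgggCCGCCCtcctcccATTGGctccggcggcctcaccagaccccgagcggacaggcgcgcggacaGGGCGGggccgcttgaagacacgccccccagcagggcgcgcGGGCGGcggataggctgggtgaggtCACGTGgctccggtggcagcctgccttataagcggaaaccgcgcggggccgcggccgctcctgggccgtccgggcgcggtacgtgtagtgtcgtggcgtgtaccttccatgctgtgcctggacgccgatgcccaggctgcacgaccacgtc
Srebf2: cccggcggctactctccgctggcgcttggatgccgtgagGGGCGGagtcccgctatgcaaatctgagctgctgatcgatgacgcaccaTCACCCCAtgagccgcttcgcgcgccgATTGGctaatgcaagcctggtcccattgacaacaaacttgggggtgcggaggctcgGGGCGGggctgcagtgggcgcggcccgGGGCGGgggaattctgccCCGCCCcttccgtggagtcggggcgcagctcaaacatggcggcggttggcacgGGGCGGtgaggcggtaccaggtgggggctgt
Npc1l1: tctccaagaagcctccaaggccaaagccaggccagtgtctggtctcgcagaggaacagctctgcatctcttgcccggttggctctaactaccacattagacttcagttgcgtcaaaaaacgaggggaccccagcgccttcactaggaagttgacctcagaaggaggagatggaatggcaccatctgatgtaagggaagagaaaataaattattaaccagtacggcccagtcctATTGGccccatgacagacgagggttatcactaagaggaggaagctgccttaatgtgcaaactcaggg
The Insig1 window held an E-box at 101 to 96 bases before the start, a CCAAT box on the minus strand and 3 GC boxes. In the Srebf2 window there was TCACCCCA at 162 to 155 bases before the start, a CCAAT box on the minus strand and 5 GC boxes, while the Npc1l1 window held 1 CCAAT box on the minus strand and none of the other motifs. Neither these windows nor those of Srebf1 (3 windows), Insig2 (3) and Scap (2) held TCACNCCAC, which was found in 1.24% of 32851 windows of the same length. The other motifs were in 1.56% (TCACCCCA, a form added after the data were seen), 7.15% (CACGTG), 37.4% (CCAAT) and 35.7% (GGGCGG) of those windows. In 18 windows of the sterol synthesis and uptake genes listed below, the shares were 5.56% (TCACNCCAC), 5.56% (TCACCCCA), 16.7% (CACGTG), 77.8% (CCAAT) and 83.3% (GGGCGG). No window was available to search for Stard4 and Npc1. TCACCCCA and TCACNCCAC can overlap. A match is a stretch of letters, not a shown binding site.

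Levels are CPM, counts scaled to a common library size, computed from the deposited estimated counts, whose library totals were 77741597 to 84017551 in ATO, 74945894 to 91737502 in Model and 72584333 to 80694206 in Normal. Model 2 and Model 3 stood apart: the share of counts from pancreatic acinar genes was 9.07% and 3.91% there, against 0.00621% to 0.369% in the other 7 libraries. Colon epithelial markers were present throughout, but Hoxb13, a marker of the distal colon, ranged from 0.406 CPM in ATO 3 to 241 CPM in Model 1 (the position along the colon was not tested). The summed RNA of cell type markers differed between groups, with some overlap. Macrophage markers summed to 493 to 609 CPM in ATO, 653 to 689 CPM in Model and 225 to 369 CPM in Normal libraries. Colon epithelial markers summed to 25285 to 35812 CPM in ATO, 32677 to 40567 CPM in Model and 38664 to 62155 CPM in Normal. Fibroblast markers summed to 948 to 1588 CPM in ATO, 983 to 1817 CPM in Model and 486 to 644 CPM in Normal, and neutrophil markers to 54.4 to 175 CPM in ATO, 43.9 to 112 CPM in Model and 5.78 to 8.22 CPM in Normal. Smooth muscle markers summed to 1805 to 2521 CPM in ATO, 2046 to 4019 CPM in Model and 3408 to 4821 CPM in Normal. In bulk tissue, fewer cells of a type and less RNA per cell cannot be told apart.

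No gene of the 8 passed the threshold, an adjusted p of 0.05 by edgeR's quasi-likelihood test with Benjamini-Hochberg adjustment, in any of the 3 comparisons. ATO and Model differed in 0 of 8, beside 0 of 16160 genes overall (0% called; DESeq2 called 324 genes there, none of them among the 8). Model and Normal differed in 0 of 8, against 5.46% of all genes tested. ATO and Normal differed in 0 of 8, against 1.67% of all genes. At an unadjusted p under 0.05 the counts were 0 of 8 for ATO against Model (background 11.8%), 3 of 8 for Model against Normal (background 20.9%) and 1 of 8 for ATO against Normal (background 15.2%). The 3 for Model against Normal were Stard4, Npc1 and Npc1l1, and the Npc1l1 difference rested on Model 3, as described below. The 2 groups' libraries were fully separated for 0 of 8 genes between ATO and Model (background 15.6%), 2 of 8 between Model and Normal (background 25.7%) and 2 of 8 between ATO and Normal (background 24.7%). With 8 genes, these counts lie near the background of the whole table. The comparisons share libraries, so they are not independent of each other.

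**Figure D1:**
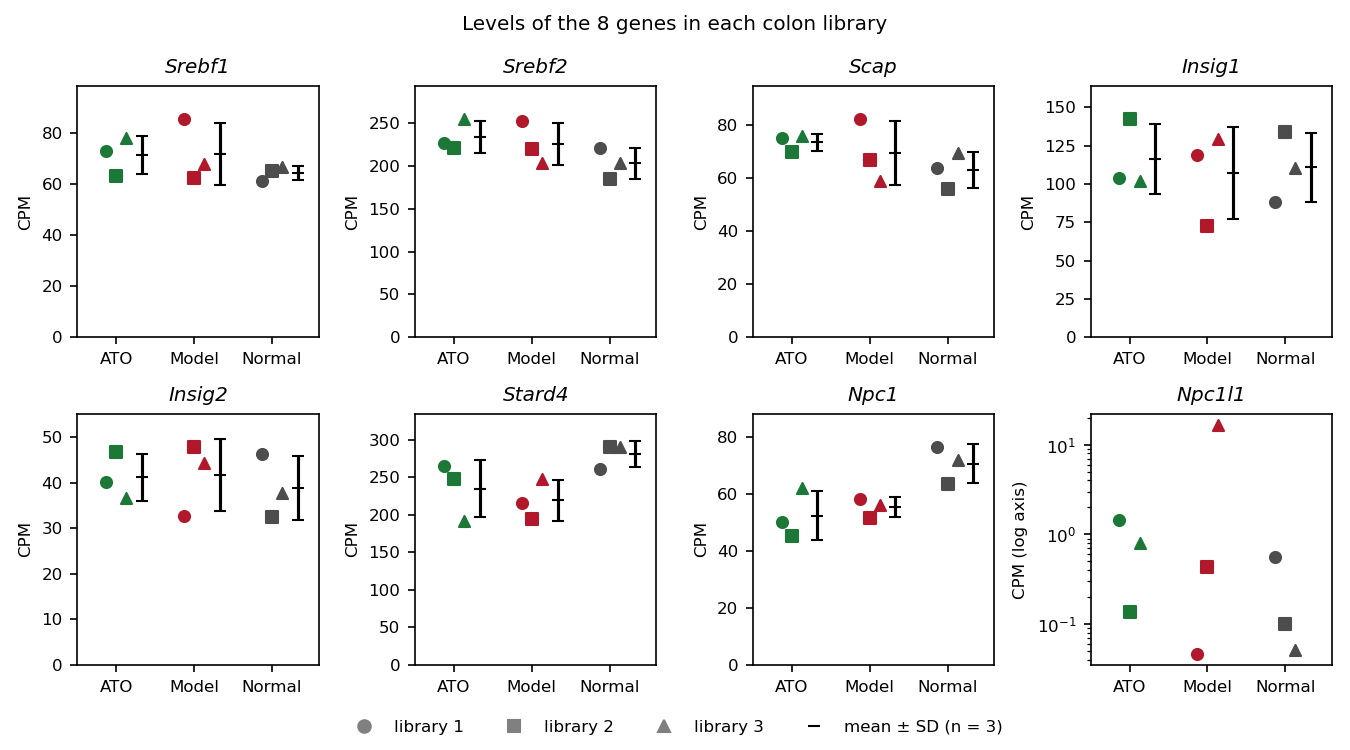
CPM of each of the 8 genes (vertical axes from 0, except Npc1l1 on a log axis) in ATO, Model and Normal libraries; symbols are libraries 1 to 3 and bars are the mean ± SD, n = 3. The groups overlap in most panels, Npc1 is lower in every ATO and Model library than in any Normal library, and Npc1l1 stands far above all others in Model 3 at 16.5 CPM.

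The transcription factors and their escort were not called in any comparison. Srebf1 encodes SREBP-1, whose 1c form drives fatty acid synthesis and whose 1a form acts on both pathways. Its level was 72.6, 63.2 and 77.8 CPM in ATO 1 to 3, 85.4, 62.2 and 67.6 CPM in Model 1 to 3 and 61.1, 65.1 and 66.3 CPM in Normal 1 to 3. Both treated groups overlapped Normal, and the single highest value was Model 1. The log2 fold change was -0.01 ± 0.14 (SE) for ATO against Model (edgeR adjusted p = 0.987), 0.16 ± 0.14 for Model against Normal (adjusted p = 0.557) and 0.15 ± 0.14 for ATO against Normal (adjusted p = 0.677). The gene lies at chr11:60089915-60111430 (mm39) and overlaps Rai1 in the table. Its count merges the 1a and 1c forms, which therefore were not told apart.

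Srebf2 encodes SREBP-2, the main activator of the cholesterol synthesis genes (chr15:82031382-82089580). It had 226, 221 and 255 CPM in ATO libraries, 253, 220 and 204 CPM in Model libraries and 221, 184 and 204 CPM in Normal libraries. The 3 ranges overlapped, with ATO 3 and Model 1 at the top. For ATO against Model the log2 fold change was 0.05 ± 0.13, and its 95% interval of -0.24 to 0.35 allows a fold of 0.845 to 1.27 (edgeR adjusted p = 0.923). The change was 0.15 ± 0.13 for Model against Normal (adjusted p = 0.560) and 0.20 ± 0.13 for ATO against Normal (adjusted p = 0.522).

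Scap, the sterol-sensing escort of the SREBPs (chr9:110162356-110214018), had 74.8, 69.7 and 75.6 CPM in ATO, 82.2, 66.8 and 58.7 CPM in Model and 63.6, 55.8 and 69.1 CPM in Normal. Every ATO library lay above every Normal library, by a margin under 1 CPM between the closest pair, while Model spanned both. ATO against Normal gave a log2 fold change of 0.22 ± 0.14 with a 95% interval of -0.09 to 0.54 (edgeR adjusted p = 0.512). The other comparisons gave 0.08 ± 0.14 for ATO against Model (adjusted p = 0.881) and 0.14 ± 0.14 for Model against Normal (adjusted p = 0.625).

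The INSIG pair, which retains SCAP when sterols are plentiful, varied within groups at least as much as between them. Insig1, the form induced by SREBPs (chr5:28276361-28283660), had 104, 143 and 102 CPM in ATO libraries, 119, 72.7 and 129 CPM in Model libraries and 88.4, 134 and 110 CPM in Normal libraries. The group means were 116 ± 22.9, 107 ± 30.2 and 111 ± 22.7 CPM in ATO, Model and Normal (SD, n = 3 each), and the highest library was 1.96 times the lowest. The log2 fold change was 0.12 ± 0.24 for ATO against Model, and its 95% interval of -0.43 to 0.66 does not reach a doubling or a halving (edgeR adjusted p = 0.904). It was -0.05 ± 0.24 for Model against Normal (adjusted p = 0.935) and 0.07 ± 0.24 for ATO against Normal (adjusted p = 0.937). Without Model 2, which had the lowest value and the most acinar RNA, the change for ATO against Model was -0.10 and that for Model against Normal 0.17.

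Insig2, the form less dependent on SREBPs (chr1:121232082-121260318), had 40.2, 46.8 and 36.7 CPM in ATO, 32.8, 48.0 and 44.4 CPM in Model and 46.3, 32.6 and 37.7 CPM in Normal. High and low libraries occurred in each group. Its log2 fold change was -0.02 ± 0.18 for ATO against Model (edgeR adjusted p = 0.985), 0.10 ± 0.18 for Model against Normal (adjusted p = 0.801) and 0.09 ± 0.18 for ATO against Normal (adjusted p = 0.885).

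Stard4 and Npc1 averaged lower in ATO and Model than in Normal, without passing the threshold. Stard4, a cytosolic sterol carrier and SREBP-2 target (chr18:33332408-33346915), had 265, 247 and 192 CPM in ATO libraries, 215, 194 and 247 CPM in Model libraries and 260, 290 and 291 CPM in Normal libraries. All 3 Model libraries lay below all 3 Normal libraries, while ATO 1 overlapped Normal. Model against Normal gave a log2 fold change of -0.36 ± 0.15, a fold of 0.781 with a 95% interval of 0.613 to 0.994 (edgeR adjusted p = 0.228). The change was -0.26 ± 0.15 for ATO against Normal (adjusted p = 0.483) and 0.10 ± 0.15 for ATO against Model (adjusted p = 0.869). Leaving out Model 2 and Model 3 together gave -0.38 for Model against Normal.

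Npc1 exports cholesterol from late endosomes and lysosomes (chr18:12322750-12369457). It had 50.1, 45.2 and 62.2 CPM in ATO, 58.4, 51.6 and 56.2 CPM in Model and 76.8, 63.5 and 72.1 CPM in Normal, so the lowest Normal library lay above all 6 others. ATO against Normal gave a log2 fold change of -0.43 ± 0.14, a fold of 0.741 with a 95% interval of 0.597 to 0.921 (edgeR adjusted p = 0.176, unadjusted p = 0.0122). Model against Normal gave -0.35 ± 0.14, a fold of 0.783 with a 95% interval of 0.630 to 0.972 (adjusted p = 0.184), or -0.28 without Model 2 and Model 3. Both comparisons use the same Normal libraries. ATO against Model gave -0.08 ± 0.14 (adjusted p = 0.886). The macrophage, fibroblast and neutrophil marker sums also separated every Normal library from all ATO and Model libraries, in the opposite direction, and the colon epithelial and smooth muscle sums were higher in every Normal library than in every ATO library but overlapped between Model and Normal. Their part in the Npc1 and Stard4 differences was not tested. Npc1 overlaps Rmc1 in the table, and whether reads were counted by strand is not given in the sources used here.

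**Figure D2:**
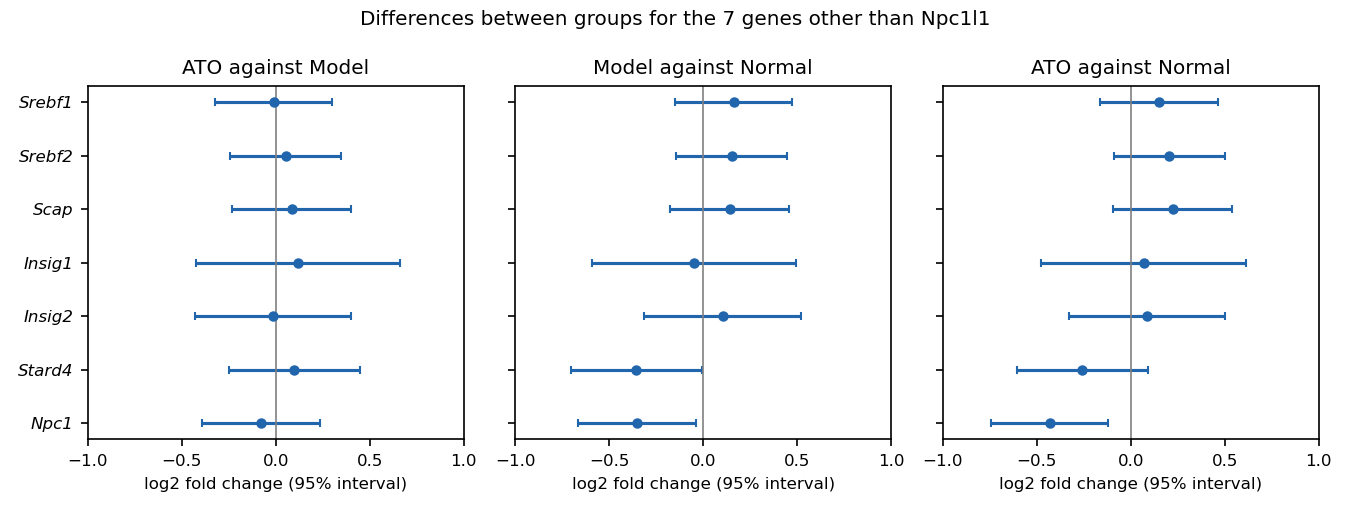
Log2 fold changes (points) with 95% intervals (bars) of the 7 genes other than Npc1l1, for ATO against Model, Model against Normal and ATO against Normal. Most intervals span 0; those of Npc1 against Normal, at -0.67 to -0.04 for Model and -0.74 to -0.12 for ATO, and that of Stard4 for Model against Normal, at -0.71 to -0.01, lie below 0 before adjustment over the 16160 genes.

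Npc1l1, the cholesterol importer of small intestinal enterocytes (chr11:6161013-6180143), was at most 1.46 CPM in 8 libraries and 16.5 CPM in 1. It had 132, 12 and 68 estimated counts in ATO, 4, 36 and 1129 in Model and 40, 8 and 4 in Normal, where about 4 estimated counts stand for 1 read pair. The level was 1.46, 0.136 and 0.812 CPM in ATO, 0.0472, 0.438 and 16.5 CPM in Model and 0.568, 0.100 and 0.0514 CPM in Normal. Model 3 thus stood far above the other 8 libraries, while Model 1 and Normal 3 each held 4 estimated counts, about 1 read pair. Model against Normal gave a log2 fold change of 4.57 ± 1.86 (edgeR adjusted p = 0.199), which was 0.02 without Model 3 (adjusted p = 0.994) and -2.30 without Model 2 and Model 3. ATO against Model gave -2.81 ± 1.69 (adjusted p = 0.554), which was 1.72 without Model 3. ATO against Normal gave 1.75 ± 1.72 (adjusted p = 0.70), which was 0.997 without ATO 1, 3.37 without Normal 1 and between these under the other alternatives.

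Model 3 was also the library richest in small intestinal transcripts. Of 13 small intestinal enterocyte markers, 11 were highest in Model 3, the exceptions being Fabp2 and Slc5a1. The margin was small for Apob (205 CPM, against at most 150 CPM elsewhere) and Fabp6 (38.9 CPM, against at most 28.6 CPM). The summed level of the 13 markers was 1069 CPM in Model 3 and 243 to 567 CPM in the other 8 libraries. Sis, sucrase-isomaltase of the brush border, had 47.0 CPM in Model 3 and at most 2.6 CPM elsewhere. The milk-sugar hydrolase gene Lct had 50.3 CPM there and at most 0.375 CPM elsewhere, and the apolipoprotein genes Apoa1 and Apoa4 had 63.7 and 70.2 CPM against at most 0.694 and 0.346 CPM. Apoa4 and Apoc3 were at 0 counts in 5 libraries each, Apoa1 in 2, and Lct and Treh in 1 each. The part of small intestinal RNA in the Npc1l1 values was not tested.

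**Figure D3:**
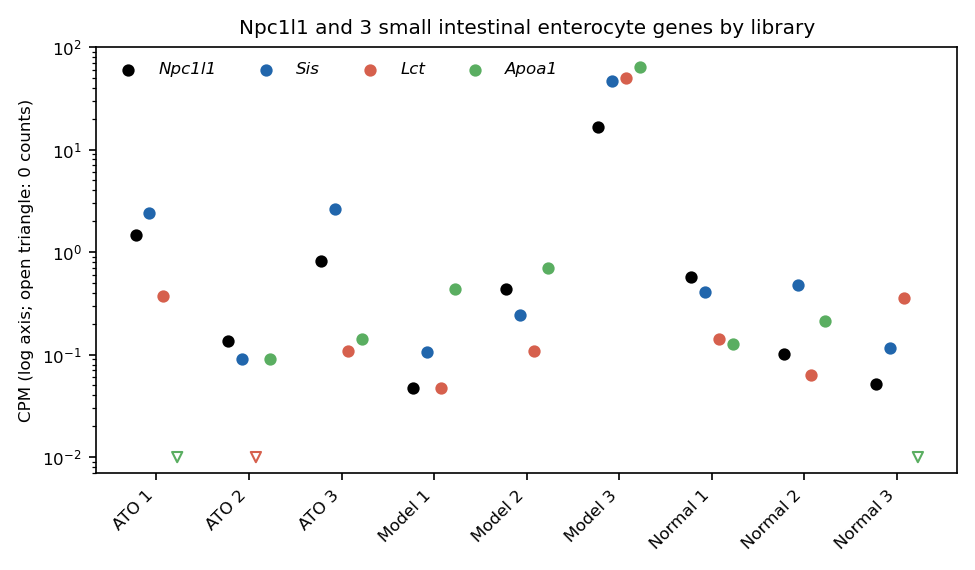
CPM (log axis) of Npc1l1, Sis, Lct and Apoa1 in each of the 9 libraries; open triangles mark 0 counts. All 4 genes peak in Model 3, at 16.5 CPM for Npc1l1 and 47.0 to 63.7 CPM for the others, and lie at or below 2.6 CPM in the other 8 libraries.

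Levels per gene length ranked the 8 in 3 tiers. Per kilobase of merged exons, the means over 9 libraries were 47.0 ± 7.15 CPM per kb for Stard4, 43.5 ± 4.48 for Srebf2 and 41.3 ± 8.33 for Insig1 (SD), and the ranges of these 3 overlapped. Below them came Scap at 16.2 ± 1.99, Srebf1 at 16.1 ± 1.89, Insig2 at 13.7 ± 2.04 and Npc1 at 11.4 ± 1.97 CPM per kb, of which Scap, Srebf1 and Insig2 overlapped each other and Npc1 overlapped all 3. The lowest Insig1 library, at 27.0 CPM per kb, was above the highest of this second tier, at 19.9 CPM per kb in Srebf1. Npc1l1 was last at 0.500 ± 1.20 CPM per kb, and even in Model 3 it reached 3.69, below the lowest Npc1 value of 8.65. The spread over libraries, as a coefficient of variation in CPM, was 10.3% for Srebf2, 11.8% for Srebf1, 12.3% for Scap, 14.8% for Insig2, 15.2% for Stard4, 17.3% for Npc1, 20.2% for Insig1 and 240% for Npc1l1.

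Insig1 varied from library to library together with the sterol synthesis genes. The comparison list held 22 genes of sterol synthesis and uptake, from Hmgcs1 at the head of the mevalonate pathway to Dhcr7 at the end of cholesterol synthesis. Over the 9 libraries, the Pearson r of log2 CPM between Insig1 and these genes was positive for 22 of 22, with a median of 0.66, against a median of -0.03 over the other 16159 genes tested. It was over 0.7 for 8 of 22, against 2.26% of all genes. The closest were squalene epoxidase Sqle (0.86), the mevalonate pathway enzymes Mvd (0.85), Hmgcs1 (0.83) and Fdps (0.83), and the late-step enzymes Ebp (0.83) and Nsdhl (0.82), and the lowest r of the list was 0.22. With each group's mean taken out, the median r was 0.79 and 22 of 22 were positive. These genes share the libraries, their depth and their tissue makeup.

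The summed level of the 22 genes was 2943, 3152 and 2503 CPM in ATO 1 to 3, 3269, 2158 and 2953 CPM in Model 1 to 3 and 2634, 3309 and 3018 CPM in Normal 1 to 3, so each group held low and high libraries. Against this sum on the log2 scale, Insig1 had a Pearson r of 0.887 (exact permutation p = 0.00178, two-sided, adjusted p = 0.0142 over the 8 genes) and a Spearman rho of 0.867 (exact permutation p = 0.00451, adjusted p = 0.0361), n = 9 libraries. Without Model 2 and ATO 3, the libraries farthest from the median sum, r was 0.797. For deviations from the group means r was 0.909. The sums had been seen before this relation was tested, and Model 2, lowest in both, was the library with the most acinar RNA.

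Stard4 gave a Pearson r of 0.642 with the sum (exact permutation p = 0.0596, adjusted p = 0.238) and a rho of 0.467 (exact permutation p = 0.213, adjusted p = 0.425), and r was -0.133 without Model 2 and ATO 3, so its relation rested on those libraries. For deviations from the group means its r with the sum was 0.704, and gene by gene the median was 0.65 with 21 of 22 positive. Without the group means taken out, its median r with the list was 0.49, and 18 of 22 were positive. For Srebf2 the median r was -0.20 and 8 of 22 were positive. It was 0.31 for Srebf1, -0.03 for Scap, -0.43 for Insig2, -0.02 for Npc1 and -0.16 for Npc1l1. For these 6 genes the adjusted p of the relation with the sum was at least 0.333 for Pearson's r and 0.321 for Spearman's rho.

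**Figure D4:**
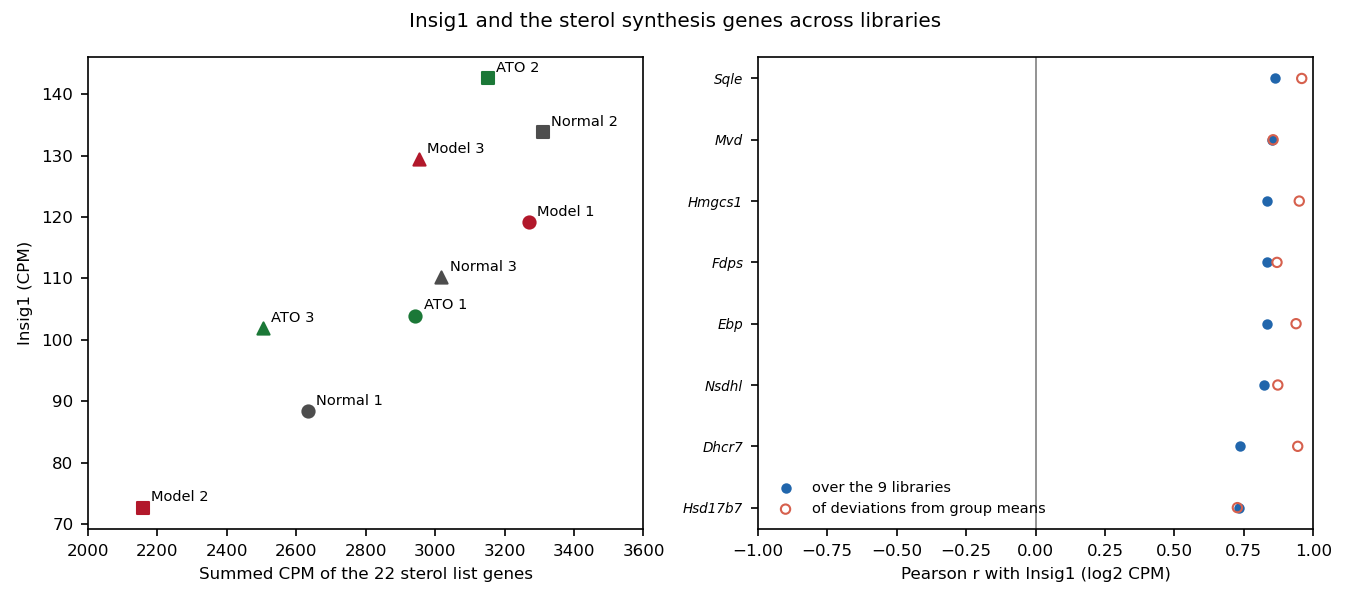
Left, Insig1 (CPM) against the summed CPM of the 22 sterol synthesis and uptake genes in each of the 9 libraries; right, Pearson r of log2 CPM between Insig1 and each of the 8 genes with r over 0.7, over the libraries (filled) and for deviations from the group means (open). Insig1 is highest in ATO 2 at 143 CPM and lowest in Model 2 at 72.7 CPM, and r over the libraries runs from 0.73 for Hsd17b7 to 0.86 for Sqle.

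Among the 8 themselves, Srebf2 and Scap were the closest pair, with a Pearson r of 0.87 over the 9 libraries and 0.82 for deviations from the group means. Srebf1 had an r of 0.72 with Scap and 0.68 with Srebf2. Srebf1 and Insig2 ran opposite, with r of -0.67, or -0.88 for deviations from the group means, and so did Srebf2 and Stard4 (-0.74 and -0.64). Insig1 and Insig2 had an r of -0.38. Some pairs changed sign once the group means were taken out, such as Srebf2 and Npc1 (-0.16 and 0.76). The r values among the 8 were not tested and are a description only. Over all genes tested, the 2 most like each of the 8 by Pearson r were Ppfibp2 (0.93) and Slc43a2 (0.91) for Srebf1, Mtor and Rara (0.98 each) for Srebf2, 1700001K19Rik (0.97) and Lrp5 (0.93) for Scap, and Rps15 (0.94) and Atp8a2 (0.93) for Insig1. Insig2 was most like Slc12a5 (0.94) and Tmem175 (0.88), Stard4 most like Akr1b3 and Yae1d1 (0.96 each), and Npc1 most like Trat1 and Col4a3 (0.95 each). For Npc1l1 they were Sis (0.94), named above as a small intestinal gene, and Lrrc41 (0.91). The counts of Rps15 are uncertain, since ribosomal protein genes have many near-identical pseudogenes. Each pair is the highest of 16159 correlations over 9 points and is given as a description only.

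Few genes of the surrounding pathway passed the threshold. Of the 22 sterol synthesis and uptake genes, 0 passed the threshold in any comparison, and the median log2 fold change was 0.03 for ATO against Model, -0.01 for Model against Normal and -0.02 for ATO against Normal, beside -0.03, -0.00 and 0.01 over all genes tested. At an unadjusted p under 0.05, edgeR gave 0, 3 and 1 of the 22 in these comparisons, beside 11.8%, 20.9% and 15.2% of all genes tested. DESeq2 called 0, 1 and 1 of the 22, and its counts over all genes are given below with the trafficking genes. For ATO against Model the smallest p of the list belonged to Msmo1, a sterol demethylase, at -0.54 ± 0.30 (adjusted p = 0.530).

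Of 17 lipogenic genes, the usual targets of SREBP-1c, 0 passed in any comparison, with medians of 0.08 for ATO against Model, -0.04 for Model against Normal and -0.13 for ATO against Normal. Fads1, a fatty acid desaturase, had 45.2, 36.4 and 35.3 CPM in ATO, 21.4, 31.2 and 31.7 CPM in Model and 22.6, 24.6 and 23.0 CPM in Normal. Its ATO libraries lay above all 6 others, with a log2 fold change of 0.47 ± 0.17 against Model (edgeR adjusted p = 0.359) and 0.74 ± 0.17 against Normal (adjusted p = 0.0766). Such full separation held for 2 of 17 genes for ATO against Model (background 15.6%) and 1 of 17 for ATO against Normal (background 24.7%). Directions in the list were mixed, with 10 of 17 positive for ATO against Model and 7 of 17 for ATO against Normal. For Model against Normal the smallest p was that of Elovl6, a fatty acid elongase, at -0.51 ± 0.22 (adjusted p = 0.214). Of 12 genes of SREBP processing and degradation, 0 passed, with medians of 0.01, 0.02 and 0.04 in the same order of comparisons. At an unadjusted p under 0.05, edgeR gave 1, 1 and 5 of the 17 lipogenic genes and 1, 0 and 2 of the 12 processing genes. The shares over all genes tested were 11.8%, 20.9% and 15.2%. DESeq2 called 0, 0 and 1 of each list, and its counts over all genes are given below with the trafficking genes. The smallest p values of the processing list were those of the ubiquitin ligase gene Rnf145 for ATO against Model (-0.29 ± 0.13, adjusted p = 0.408), the site-2 protease gene Mbtps2 for Model against Normal (-0.28 ± 0.16, adjusted p = 0.367) and Erlin1 for ATO against Normal (-0.54 ± 0.15, adjusted p = 0.129).

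Cholesterol trafficking and esterification held the only calls. Of its 21 genes, 2 rose in Model against Normal and 0 fell, with a median of 0.13, while 0 passed for ATO against Model (median -0.25, 18 of 21 negative, beside 8687 of 16160 genes overall) and 0 for ATO against Normal (median -0.18). The genes share their libraries, so their directions are not independent. The summed level of the list overlapped between groups, at 1388 to 1525 CPM in ATO, 1420 to 1589 CPM in Model and 1353 to 1458 CPM in Normal. At an unadjusted p under 0.05 there were 5 of 21 for ATO against Model (background 11.8%), 8 of 21 for Model against Normal (background 20.9%) and 8 of 21 for ATO against Normal (background 15.2%). DESeq2 called 0, 6 and 5 of them, beside 324 of 14656, 1973 of 16751 and 1069 of 16751 genes overall. Soat2 encodes the enzyme that esterifies cholesterol in enterocytes and hepatocytes. It had 3.75, 3.37 and 8.41 CPM in ATO, 5.93, 7.02 and 7.73 CPM in Model and 1.67, 2.84 and 2.30 CPM in Normal, a log2 fold change of 1.60 ± 0.38 for Model against Normal (edgeR adjusted p = 0.0430). All 3 Model libraries lay above all Normal libraries. Without Model 2 and Model 3, the libraries richest in acinar RNA, the Model 1 value alone gave 1.38. Model 3 was also the library richest in small intestinal transcripts. The part of acinar or small intestinal RNA in the Soat2 level was not tested. Flot2 encodes flotillin-2, a membrane scaffold protein that takes part in NPC1L1 endocytosis. It had 36.8, 36.9 and 34.5 CPM in ATO, 53.5, 45.4 and 31.8 CPM in Model and 20.3, 23.9 and 25.5 CPM in Normal, a log2 fold change of 0.91 ± 0.19 for Model against Normal (adjusted p = 0.0277). With 1 library left out at a time, the log2 fold change of Soat2 was 1.42 to 1.79 and missed the threshold in 7 of 9 fits (adjusted p = 0.0226 to 0.155). That of Flot2 was 0.73 to 1.09 and missed it in 6 of 9 (adjusted p = 0.00485 to 0.0910). For ATO against Model the smallest p of the list was that of Gramd1b, a sterol carrier at membrane contacts, with 17.3, 16.4 and 18.1 CPM in ATO and 20.2, 29.6 and 33.3 CPM in Model (-0.68 ± 0.20, adjusted p = 0.33). For ATO against Normal it was that of Vldlr, the VLDL receptor, with 15, 18.8 and 17.6 CPM in ATO, 11.9, 24.9 and 21.8 CPM in Model and 41.1, 33.2 and 39.7 CPM in Normal. All 6 ATO and Model libraries lay below all Normal libraries. The log2 fold change was -1.15 ± 0.25 for ATO against Normal (edgeR adjusted p = 0.0586) and -0.96 ± 0.25 for Model against Normal (adjusted p = 0.0598), and DESeq2 called both (adjusted p = 0.000708 and 0.00446).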

How the data were processed

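Total RNA of 9 colon libraries was sequenced. The submitters' processing notes name bcl2fastq 2.0, HISAT2, StringTie and DESeq2, with builds rn6 and mm39, without their roles. Estimated counts, whole numbers without scaling, are what the authors deposited; 1997 values of 4 and 346 of 1 show steps of about 4 per read pair. With R 4.3.3 and edgeR 4.0.16, 16160 genes passed filterByExpr. Libraries were scaled by TMM, and a single quasi-likelihood fit of the 9, with no term but group, gave two-sided p-values, adjusted by Benjamini-Hochberg over the 16160 genes (threshold 0.05). SE is the absolute log2 fold change over the square root of F; intervals are at 95% and not adjusted. CPM were computed here from TMM-scaled totals. Correlations between genes or between libraries used log2 CPM with a prior count of 2. Those with the summed level of the sterol genes used log2 CPM without a prior count. Exon lengths came from GENCODE M21. Coordinates are those of the deposited table, taken as mm39, the mouse build in the notes. The fit was tested on simulated data.

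The 8 genes, the lists and the tests were chosen with earlier results of these data known. Named from each list were the genes past the threshold and, where none passed, the smallest p, and for each of the 8 its 2 most correlated genes; those named for DESeq2's calls were chosen after their values were seen. Some genes that these rules pick are not reported here. Alternatives were DESeq2 1.42.0 and its size factors, TMM without acinar genes, no filter on low counts, only the 2 groups compared, a replicate block, counts divided by 4, and leaving out each library or Model 2 and Model 3 together. Replicate numbers were not used as pairs in the main fit. The correlation of same-numbered deviations from group means was -0.28 to -0.17 between ATO and Model. It was 0.08 to 0.23 between ATO and Normal and -0.21 to -0.08 between Model and Normal. Differently numbered libraries were not compared, so whether equal numbers share a batch cannot be told from these values. Exact tests used scipy 1.17.1, and plots matplotlib 3.10.9, under Python 3.11.15.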

Additional observations from a re-analysis of the deposited data

How the results depend on the processing

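None of the 8 genes passed the threshold under any of the 17 alternatives. Of their 408 values, 376 kept their direction and 32 reversed, with a lowest adjusted p of 0.0652 (Npc1l1, Model against Normal, DESeq2). Without Model 2 and Model 3 together, Model 1 alone stands for its group and is assumed to vary like the others. Reversed log2 fold changes for ATO against Model were then -0.038 for Insig1, 0.33 for Insig2, 4.04 for Npc1l1, -0.16 for Scap and -0.11 for Srebf2. Those for Model against Normal were 0.11 for Insig1, -0.25 for Insig2 and -2.30 for Npc1l1. Others moved without reversing, such as Srebf1 at -0.26 for ATO against Model. For Model against Normal, Srebf1 was then 0.41, Scap 0.39 and Srebf2 0.32. With only the 2 groups in the fit, ATO against Model gave 0.0040 for Insig2 and 0.0086 for Srebf1. Leaving out 1 library at a time gave ranges that crossed 0. For ATO against Model these were -0.10 to 0.28 for Insig1, -0.16 to 0.10 for Insig2, -0.21 to 0.015 for Npc1, -3.56 to 1.72 for Npc1l1, -0.022 to 0.23 for Scap, -0.10 to 0.13 for Srebf1 and -0.016 to 0.14 for Srebf2. For ATO against Normal they were -0.12 to 0.23 for Insig1 and -0.030 to 0.23 for Insig2, and for Model against Normal -0.21 to 0.17 for Insig1, -0.011 to 0.25 for Insig2 and -0.0026 to 0.25 for Scap. Over all genes, DESeq2 called 324, 1973 and 1069 genes for ATO against Model, Model against Normal and ATO against Normal. Model against Normal gave 474 calls with only the 2 groups in the fit and 476 without Model 2 and Model 3. With 1 library left out the counts ran 0 to 1, 164 to 1164 and 17 to 382. The replicate block gave 402 calls for Model against Normal and 104 for ATO against Normal, and 0 trafficking genes for Model against Normal. Trafficking genes called in Model against Normal were 6 with DESeq2, 1 with only the 2 groups and 0 to 3 with 1 library left out. In ATO against Normal they were 5 with DESeq2 (Flot2, Vldlr, Scarb1, Soat2 and Gramd1b), 1 with only the 2 groups, 1 without Model 2 and Model 3 and 0 to 2 with 1 library left out. For ATO against Normal, 1 lipogenic gene was called by DESeq2 (Fads1), 1 with only the 2 groups, 1 without Model 2 and Model 3 and 0 to 1 with 1 library left out, and DESeq2 called 1 processing gene (Erlin1) and 1 sterol gene. In Model against Normal the lipogenic count was 0 to 1 with 1 library left out, and DESeq2 called 1 sterol gene. The cause of these differences was not tested. Outside Model 3, Npc1l1 had 4 to 132 estimated counts per library, at about 4 per read pair, so these values carry large counting error.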
